A study of Mus musculus with 24 samples.

Results

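The 24 tumours of this series were sorted by how much Mki67 RNA they held, and those with more were compared with those with less inside each treatment. Mki67 is a common marker of proliferation. Mki67 encodes Ki-67, a large protein that coats mitotic chromosomes and is made by cycling cells and lost from resting ones. In each of the 4 treatment groups the 6 tumours were ranked by Mki67 in CPM (the raw count divided by the library total, times 1e+06). The top 3 of every group, 12 tumours in all, are called Mki67-high and the bottom 3, also 12, Mki67-low. All 24 of the 24 tumours of the series are therefore members. Members were chosen by the Mki67 counts themselves, so Mki67 is described without a test, and every other value below says how a gene went along with that sort in the same libraries.

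Bulk RNA was sequenced from D4M tumours, a mouse melanoma line, grown in wild-type C57BL/6 mice. The IgG2a group was given an IgG2a antibody by intraperitoneal injection, the BRQ+IgG2a group BRQ as well. The PD-1 group was given anti-PD1, which blocks a receptor that restrains T cells, and the BRQ+PD-1 group anti-PD1 and BRQ. BRQ is brequinar, which inhibits dihydroorotate dehydrogenase (Dhodh), an enzyme of de novo pyrimidine synthesis, and the stated aim was the effect of the combination on the tumour environment. Doses, schedule, age of the mice and tumour size are not given in the labels, whose titles number the tumours of a group as biological replicates without naming an animal, so p-values measure the spread between these samples. Host cells are part of every library, and in bulk RNA fewer cells of a type and less RNA per cell cannot be told apart.

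Libraries held 19106205 to 34282319 counts, with a mean of 2.711e+07 ± 3.139e+06 in Mki67-high and 2.409e+07 ± 3.287e+06 in Mki67-low tumours (SD, n = 12 each). The melanocytic markers did not mark these tumours: Tyr and Dct were at 0 counts in all 24 libraries and Sox10 had a median of 0.0724 CPM, whereas Mitf, a transcription factor of the melanocyte lineage, ran from 11.6 to 48.2 CPM. Skeletal muscle RNA set 4 libraries apart, each above 1000 CPM of the muscle actin Acta1. They were replicates 2 and 3 of IgG2a and replicate 6 of PD-1, all Mki67-low, and replicate 4 of BRQ+IgG2a, which was Mki67-high. The summed level of the 20 muscle markers reached 45380 CPM among Mki67-low and 17240 CPM among Mki67-high tumours, and 194.7 and 1615 CPM at most without those 4 libraries.

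Genes of the cell cycle are switched on in waves. E2F factors drive the genes of S phase, when DNA is copied, and the MuvB complex with B-Myb and FoxM1 drives those of G2 and mitosis. Promoters of the late wave often hold a CCAAT box, bound by NF-Y, and a cell cycle homology region (CHR), and those of the early wave an E2F site. The 4 promoters below are shown because they hold these elements in different mixtures: Mki67 sorted the tumours, Top2a and Cdk1 belong to the mitotic list and Mcm6 to the S phase list. The sequences are RefSeq windows of build GRCm38.p6, from 250 bases before to 50 bases after the start, all on the minus strand and printed 5′ to 3′ along the gene. Capitals mark matches on either strand to CCAAT, to TTTGAA (the CHR) or to an E2F site spelled TTTCCCGC, TTTCGCGC, TTTGCCGC or TTTGGCGC, and in these 4 windows no match overlapped one of another kind. The windows are Mki67 at chr7:135716330-135716629, Top2a at chr11:99024140-99024439, Cdk1 at chr10:69352863-69353162 and Mcm6 at chr1:128359656-128359955.
Mki67: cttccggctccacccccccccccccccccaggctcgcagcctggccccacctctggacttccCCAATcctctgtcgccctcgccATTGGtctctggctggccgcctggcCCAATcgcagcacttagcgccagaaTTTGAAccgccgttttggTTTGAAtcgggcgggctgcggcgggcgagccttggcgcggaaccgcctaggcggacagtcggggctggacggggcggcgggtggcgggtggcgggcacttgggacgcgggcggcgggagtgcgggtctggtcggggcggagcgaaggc
Top2a: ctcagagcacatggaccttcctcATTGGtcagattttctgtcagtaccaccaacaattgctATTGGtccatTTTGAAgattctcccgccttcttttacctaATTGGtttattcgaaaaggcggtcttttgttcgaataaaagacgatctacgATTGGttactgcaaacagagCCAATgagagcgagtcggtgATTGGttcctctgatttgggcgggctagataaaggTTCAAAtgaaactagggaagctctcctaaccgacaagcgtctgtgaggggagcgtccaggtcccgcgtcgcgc
Cdk1: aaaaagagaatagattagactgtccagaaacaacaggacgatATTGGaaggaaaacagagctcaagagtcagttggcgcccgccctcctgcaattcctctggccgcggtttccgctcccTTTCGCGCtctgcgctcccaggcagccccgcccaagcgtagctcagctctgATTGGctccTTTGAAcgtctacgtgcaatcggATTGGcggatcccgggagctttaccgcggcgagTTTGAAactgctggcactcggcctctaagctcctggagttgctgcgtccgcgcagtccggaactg
Mcm6: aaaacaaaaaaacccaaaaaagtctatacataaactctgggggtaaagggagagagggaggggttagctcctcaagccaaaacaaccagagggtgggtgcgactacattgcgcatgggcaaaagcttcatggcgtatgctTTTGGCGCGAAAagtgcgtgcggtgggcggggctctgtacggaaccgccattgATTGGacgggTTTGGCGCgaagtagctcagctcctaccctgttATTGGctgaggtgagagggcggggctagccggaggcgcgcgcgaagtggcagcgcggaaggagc
The Mki67 window held 3 CCAAT boxes and 2 CHR matches, the Top2a window 6 and 2, and the Cdk1 window 3 and 2 with 1 E2F match. The Mcm6 window held 2 CCAAT boxes, 3 E2F matches, of which 2 overlap each other on opposite strands, and no CHR match.

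These letters were counted in every window of the gene lists used below. Of the 51 mitosis genes tested, 44 had an entry with 47 windows, and 68.1% of those windows held a CHR match and 74.5% a CCAAT box, with both in 57.4%. Of the 52 S phase genes, 38 had an entry with 44 windows, and 18.2% held a CHR match, 61.4% a CCAAT box and 38.6% an E2F match. Among all 32851 windows of the table the shares were 17.9% for the CHR, 37.4% for the CCAAT box, 6.95% for both and 2.26% for E2F. The E2F share of the mitosis windows was 4.26%. A match is a run of letters and was not tested as a binding site.

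Mki67 stood at 319.7 ± 63.6 CPM in the 12 Mki67-high and 236.6 ± 53.8 CPM in the 12 Mki67-low tumours (SD). In the IgG2a group the Mki67-high tumours held 264, 260.5 and 293.8 CPM (replicates 1, 5 and 6) and the Mki67-low tumours 210.4, 252.4 and 238.7 CPM (replicates 2, 3 and 4). In the PD-1 group the values were 291.4, 324.8 and 302.2 CPM (replicates 1, 2 and 4) against 268.2, 274 and 263.8 CPM (replicates 3, 5 and 6). These groups were narrow, with a highest tumour 1.4 and 1.23 times the lowest. In the BRQ+IgG2a group the values were 352.8, 348.8 and 332.5 CPM (replicates 1, 2 and 4) against 323.6, 113.1 and 269.9 CPM (replicates 3, 5 and 6). In the BRQ+PD-1 group they were 232.1, 478.1 and 355.2 CPM (replicates 1, 2 and 4) against 228.9, 178.9 and 217 CPM (replicates 3, 5 and 6). The brequinar groups were wide, with ranges of 3.12 and 2.67 times, and they hold both ends of the series, replicate 5 of BRQ+IgG2a at the bottom and replicate 2 of BRQ+PD-1 at the top.

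**Figure D1:**
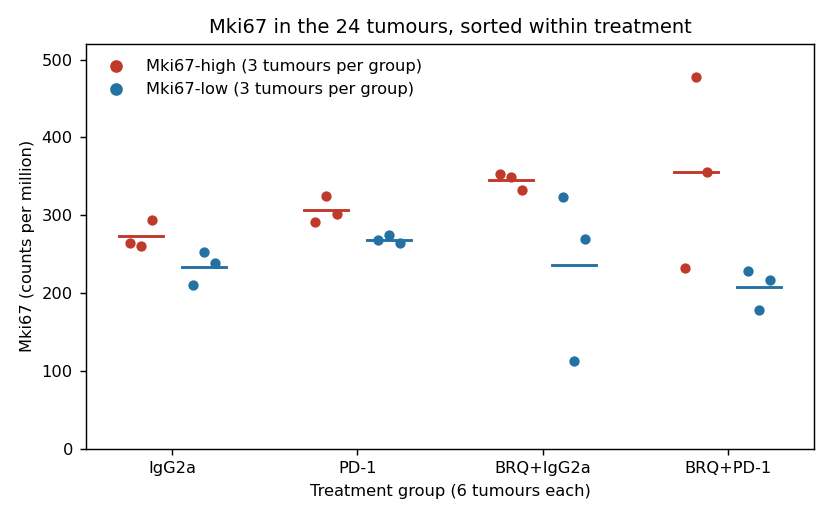
Mki67 in CPM (vertical axis) in each of the 24 tumours, by treatment group (horizontal axis). Points are tumours, red for the Mki67-high and blue for the Mki67-low 3 of each group, and bars are the means of 3; the values spread from 113.1 to 478.1 CPM in the brequinar groups and from 210.4 to 324.8 CPM in the others.

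The line between Mki67-high and Mki67-low was thin. The tumours just inside and just outside it were 260.5 and 252.4 CPM in IgG2a, a gap of 3.22%, and 291.4 and 274 CPM in PD-1, a gap of 6.37%. In BRQ+IgG2a they were 332.5 and 323.6 CPM, 2.75% apart, and in BRQ+PD-1 232.1 and 228.9 CPM, 1.39% apart. The counting error of Mki67 in the tumours just outside was 1.18 to 1.39%, so the BRQ+PD-1 gap is of the size of that error. Because ranks were taken within a group, Mki67-high means different levels in different groups: replicate 1 of BRQ+PD-1 was Mki67-high at 232.1 CPM and replicate 3 of BRQ+IgG2a Mki67-low at 323.6 CPM. Sorting by Mki67 after TMM scaling exchanged replicates 3 and 5 of IgG2a, and sorting by Top2a moved 4 tumours, replicates 4 and 6 of PD-1 and replicates 2 and 3 of BRQ+IgG2a.

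The level of Mki67 between treatments was not used by the sort and could be tested. Compared with IgG2a, the log2 fold change of Mki67 was 0.16 ± 0.21 in BRQ+PD-1, 0.18 ± 0.21 in BRQ+IgG2a and 0.17 ± 0.21 in PD-1 (SE, n = 6 each). BRQ+PD-1 differed from PD-1 by -0.0083 ± 0.21 and from BRQ+IgG2a by -0.02 ± 0.21. Single tumours moved these values: BRQ+IgG2a minus IgG2a was 0.33 without replicate 5 of BRQ+IgG2a and 0.11 without replicate 2 of IgG2a, and without the latter PD-1 minus IgG2a was also 0.11. BRQ+PD-1 minus IgG2a turned to -0.058 without replicate 2 of BRQ+PD-1, and to -0.14 with voom. No treatment difference passed edgeR's quasi-likelihood test, with adjusted p from 0.688 to 0.987. Tumours within a treatment varied more in Mki67 than the treatments did, and a difference of the size of these standard errors was not detectable with 6 tumours a group.

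Across all genes the Mki67-high and Mki67-low tumours were compared in 1 edgeR quasi-likelihood fit with treatment as a covariate. Of 16028 genes tested, leaving out Mki67, 0 were called at an adjusted p under 0.05 (0% of the genes; the smallest adjusted p was 0.149). At an unadjusted p under 0.05 there were 1772 genes (11.1%), 900 of them higher (5.62%) and 872 lower (5.44%) in Mki67-high tumours. Scaled by library totals alone these were 1408 higher and 522 lower. DESeq2 called 89 genes (0.556% of 16007), 54 higher and 35 lower, and limma voom 0. All 3 Mki67-high tumours lay above all 3 Mki67-low ones in at least 3 treatments in 85 genes (0.53%), and below them in 27 (0.168%). The share in fewer treatments was not counted, so a lack of overlap in single treatments is given below only as a description. The median log2 fold change over all genes was -0.02 and 44.9% of genes lay above 0. The lists below are read against these shares. Their genes vary together, so the members of a list that share a direction do not add up like separate observations, and none passed the test.

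The mitosis list, which holds spindle, kinetochore and chromosome condensation genes, went along with the sort as a whole, although no member was called. Of its 51 genes, 50 had a positive log2 fold change, with a median of 0.29, and 36 were higher and 1 lower at an unadjusted p under 0.05. The mean log2 CPM of the list ran from 5.58 to 6.09 in Mki67-high tumours, with a median of 5.91, and from 4.66 to 6.01 in Mki67-low tumours, with a median of 5.70. The ranges overlapped, and the mean of the Mki67-high tumours was above that of the Mki67-low tumours in all 4 treatments. The median log2 fold change was 0.54 in BRQ+PD-1 and 0.43 in BRQ+IgG2a, the groups with the wide Mki67 ranges, 0.10 in IgG2a and 0.06 in PD-1. Without the 2 tumours at the ends of the Mki67 range it was 0.19, and without any 1 tumour it stayed between 0.23 and 0.34.

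Top2a, the topoisomerase that untangles replicated chromosomes, ran from 503.5 to 822.6 CPM in Mki67-high tumours (median 641.7) and from 234.2 to 671.8 CPM in Mki67-low tumours (median 490.7). The values did not overlap in BRQ+PD-1 and IgG2a, and they overlapped in the other groups. Smc4, a core subunit of condensin, stood at 301.6 ± 26.9 against 253.1 ± 38.4 CPM. Cenpf, a kinetochore protein of late G2, ran from 70.7 to 129.8 CPM (median 90.7) against 32.3 to 92.8 CPM (median 66.2). Cenpe, the kinetochore motor that moves chromosomes to the spindle equator, stood at 92.9 ± 15.7 against 69.3 ± 16.8 CPM, and Aspm, a protein of the spindle poles, at 56.8 ± 10 against 41.5 ± 11.1 CPM. Kntc1, which recruits dynein to unattached kinetochores, stood at 46.1 ± 6.09 against 35.9 ± 8.52 CPM. Log2 fold changes were 0.32 ± 0.11 for Top2a, 0.23 ± 0.07 for Smc4, 0.38 ± 0.13 for Cenpf, 0.41 ± 0.12 for Cenpe, 0.43 ± 0.13 for Aspm and 0.34 ± 0.12 for Kntc1 (SE).

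Among the drivers of mitotic entry, Ccnb1, cyclin B1, stood at 83 ± 10.9 against 67.5 ± 19 CPM, a log2 fold change of 0.30 ± 0.12. Its kinase partner Cdk1 stood at 94.2 ± 12.9 against 82.7 ± 18.7 CPM, and its difference, 0.17 ± 0.10, was under 2 standard errors and -0.04 within IgG2a. The exception in the list was Pttg1, securin, which inhibits separase until anaphase. It stood at 13.7 ± 2.8 CPM in Mki67-high and 15.7 ± 2.77 CPM in Mki67-low tumours, a log2 fold change of -0.23 ± 0.10, and it was singled out after its value was seen. Foxm1, a transcription factor of the late wave, stood at 117.1 ± 23.6 against 95.9 ± 29.5 CPM, a log2 fold change of 0.28 ± 0.12.

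**Figure D2:**
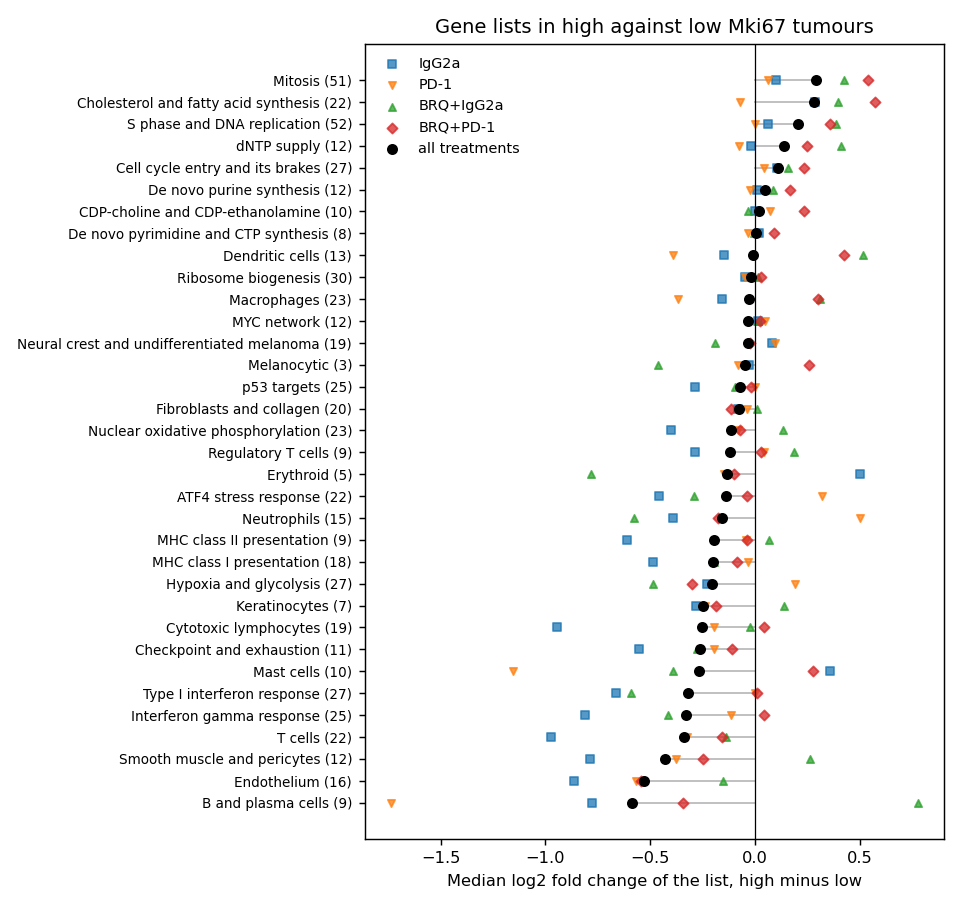
Median log2 fold change, Mki67-high minus Mki67-low (horizontal axis), of each gene list with its number of genes tested in brackets (vertical axis). Black points are the fit over all treatments and coloured points the 4 treatments; mitosis is at 0.29, cholesterol and fatty acid synthesis at 0.28 and endothelium at -0.53. The skeletal muscle and adipocyte lists are left out because their treatment medians would stretch the axis.

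The S phase list, genes of origin licensing and the replication fork, also went along with the sort. All 52 genes tested had a positive log2 fold change, 26 of them at an unadjusted p under 0.05, with a median of 0.21. Its treatment medians were 0.36 in BRQ+PD-1, 0.39 in BRQ+IgG2a, 0.06 in IgG2a and 0.0012 in PD-1, and the list's median was 0.14 without the 2 tumours at the ends of the Mki67 range. Mcm6, a subunit of the replicative helicase, ran from 139.2 to 202.2 CPM (median 183.5) in Mki67-high and from 98.7 to 181.2 CPM (median 154.6) in Mki67-low tumours, a log2 fold change of 0.23 ± 0.07. Its partner Mcm5 stood at 98 ± 19 against 83.2 ± 23.4 CPM, with a difference of 0.22 ± 0.14. Within the PD-1 group the Mcm5 difference was -0.13, and in BRQ+IgG2a, where the groups did not overlap, 0.54. Dnmt1, the methyltransferase that copies DNA methylation at the fork, stood at 176.6 ± 23.5 against 148.5 ± 24.3 CPM (0.23 ± 0.08). Pcna, the sliding clamp, stood at 164.2 ± 19.7 against 150.5 ± 24.2 CPM (0.10 ± 0.07), with negative differences in IgG2a and PD-1.

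Deoxynucleotides for replication are made by ribonucleotide reductase and salvaged by thymidine kinase. Of 12 genes of that supply, 10 had a positive log2 fold change, 3 at an unadjusted p under 0.05, with a median of 0.14, and of 0.08 without replicate 5 of BRQ+IgG2a. Rrm1, the large subunit of the reductase, ran from 144.6 to 221.2 CPM (median 190.1) against 77.6 to 193.8 CPM (median 153). Its log2 fold change was 0.27 ± 0.10, with 0.53 in BRQ+PD-1, 0.45 in BRQ+IgG2a, 0.07 in IgG2a and 0.02 in PD-1. Rrm2, the small subunit, stood at 123.7 ± 18.5 against 101.9 ± 32.1 CPM (0.29 ± 0.11), with -0.03 in PD-1 and -0.01 in IgG2a, and its values did not overlap in the brequinar groups. Tk1, thymidine kinase, stood at 75.8 ± 14.5 against 66.8 ± 16.2 CPM (0.16 ± 0.13), and its difference was 0.084 without replicate 5 of BRQ+IgG2a. Samhd1, also of this list and abundant, stood at 174.5 ± 62.8 against 178.9 ± 67.7 CPM (-0.09 ± 0.16). Whether a difference varied between treatments was tested by the interaction of treatment and sort in edgeR, which called 0 of 16028 genes (0%), with an adjusted p of 0.531 for Rrm2 and 0.738 for Rrm1. At an unadjusted p under 0.05 that test held 1409 genes (8.79%), DESeq2 called 239 and voom 396.

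Genes that drive or brake entry into the cycle came next, in a single list. Of 27 tested, 24 had a positive log2 fold change, 8 at an unadjusted p under 0.05, with a median of 0.11. Ccnd1, cyclin D1, which starts G1 progression, stood at 787.8 ± 86.9 against 706.2 ± 114.9 CPM (0.13 ± 0.07) and overlapped in all 4 treatments. Cdk4, also of this list and abundant, stood at 273.8 ± 47.3 against 260.4 ± 30.9 CPM (0.04 ± 0.06). Cdkn1a, the p53-driven inhibitor p21, ran from 112.4 to 250.6 CPM (median 166.6) against 103.9 to 320.4 CPM (median 189.2), a log2 fold change of -0.23 ± 0.17. Its highest value was in replicate 5 of BRQ+IgG2a, the tumour with the least Mki67, and without that tumour the difference was -0.05. Of 25 p53 targets, 7 had a positive and 18 a negative value, with a median of -0.07 (-0.04 without replicate 4 of BRQ+PD-1) and 1 in each direction at an unadjusted p under 0.05.

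The genes of the pathway that brequinar blocks stood near the median of all genes. De novo pyrimidine and CTP synthesis had a median log2 fold change of 0.0064 over 8 genes, 5 positive and 3 negative. Dhodh itself ran from 7.88 to 17.7 CPM (median 13.1) in Mki67-high and from 10.1 to 14.6 CPM (median 13.1) in Mki67-low tumours, a log2 fold change of -0.01 ± 0.08 whose sign turned with the scaling (0.02 with library totals). Cad, the protein of the first 3 steps, stood at 109.7 ± 15.6 against 97.7 ± 13 CPM (0.14 ± 0.07), and Umps, the enzyme after Dhodh, at 52.2 ± 6.45 against 45.3 ± 7.67 CPM (0.18 ± 0.08). Purine synthesis had a median of 0.05 over 12 genes, 10 of them positive and 0 at an unadjusted p under 0.05. Its treatment medians were 0.17 in BRQ+PD-1, 0.09 in BRQ+IgG2a, 0.01 in IgG2a and -0.02 in PD-1. The MYC network had a median of -0.03 with 5 of 12 positive and ribosome biogenesis -0.02 with 12 of 30 positive, both near the median of all genes. Among 10 genes of CDP-choline and CDP-ethanolamine synthesis the median was 0.02. Etnk1, the kinase that phosphorylates ethanolamine, stood at 189.4 ± 15.1 against 163.8 ± 20.2 CPM, a log2 fold change of 0.19 ± 0.05 with an edgeR adjusted p of 0.208.

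Cholesterol and fatty acid synthesis also went along with the sort, at a median close to that of mitosis. These enzymes are switched on together by the SREBP factors when membranes need lipid. All 22 genes had a positive log2 fold change, 17 of them at an unadjusted p under 0.05 where 5.62% of all genes were, with a median of 0.28. The treatment medians were 0.57 in BRQ+PD-1, 0.40 in BRQ+IgG2a, 0.29 in IgG2a and -0.07 in PD-1. The mean log2 CPM of the list ran from 6.74 to 7.26 in Mki67-high and from 5.92 to 7.08 in Mki67-low tumours. Its median correlation with Mki67, a measure described below, was 0.73 against 0.89 for mitosis. Without the 2 tumours at the ends of the Mki67 range these were 0.68 and 0.82. Fasn, fatty acid synthase, ran from 387.4 to 607.5 CPM (median 451.4) against 278.9 to 498.9 CPM (median 356.9), a log2 fold change of 0.28 ± 0.09 with an edgeR adjusted p of 0.323. Scd2, a desaturase, stood at 1724 ± 158.7 against 1479 ± 321.6 CPM (0.20 ± 0.09, adjusted p 0.436). With a term for transcript length, described below, the median was 0.22 and 5 genes had an unadjusted p under 0.05.

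Hypoxia and glycolysis genes went the other way. These are targets of the oxygen-sensing HIF factors and enzymes that turn glucose into lactate. All 27 had a negative log2 fold change, 12 at an unadjusted p under 0.05 where 5.44% of all genes were, with a median of -0.21. With library totals alone, 25 were negative and 2 positive. The treatment medians were -0.30 in BRQ+PD-1, -0.48 in BRQ+IgG2a, -0.23 in IgG2a and, with the opposite sign, 0.19 in PD-1. In BRQ+IgG2a the mean log2 CPM of the list did not overlap between the sorted tumours, nor did it in BRQ+PD-1. Gapdh, a glycolytic enzyme often used as a reference gene, ran from 2140 to 3487 CPM (median 2624) in Mki67-high and from 2478 to 3471 CPM (median 3061) in Mki67-low tumours, a log2 fold change of -0.20 ± 0.07 with an adjusted p of 0.354. Eno1, enolase, stood at 1854 ± 155.6 against 1960 ± 303.3 CPM (-0.10 ± 0.07, adjusted p 0.589).

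Adm, adrenomedullin, a HIF target that dilates vessels, had the lowest value of that list and was singled out after its value was seen. It ran from 1.59 to 5.38 CPM (median 3.61) in Mki67-high and from 3.76 to 11.8 CPM (median 7.12) in Mki67-low tumours, and the values overlapped in PD-1 and in no other treatment, which makes it 1 of the 27 genes counted above. Its log2 fold change was -0.96 ± 0.20 with an edgeR adjusted p of 0.149. DESeq2 called it, with an adjusted p of 0.00469. Of 22 ATF4 stress genes, 16 were negative and 6 positive, 4 of the negative ones at an unadjusted p under 0.05, with a median of -0.14 and again a positive one, 0.32, in PD-1. Without replicate 4 of IgG2a that median was -0.06. Slc3a2, the heavy chain of amino acid transporters, stood at 240.2 ± 52.8 against 271.4 ± 45.7 CPM (-0.23 ± 0.11). Psat1, the most abundant gene of the ATF4 list, went the other way, at 315.7 ± 54.2 against 288.6 ± 66.1 CPM (0.12 ± 0.10).

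**Figure D3:**
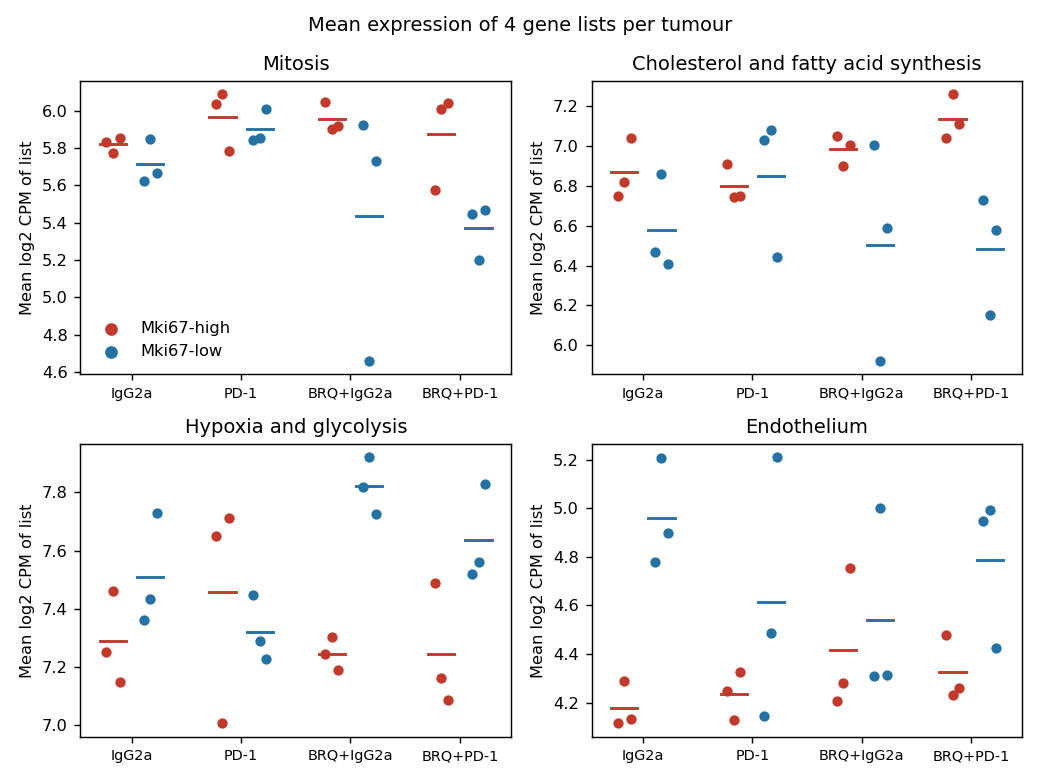
Mean log2 CPM of 4 gene lists (vertical axes) in each tumour, by treatment (horizontal axes). Points are tumours, red for Mki67-high and blue for Mki67-low, and bars are means of 3; the lowest mitosis value is 4.66 in BRQ+IgG2a replicate 5, and the endothelial values of the Mki67-high tumours sit between 4.11 and 4.76.

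Endothelial genes were lower in the Mki67-high tumours of every treatment, without passing the test. Of 16 markers of blood vessel lining, 15 had a negative log2 fold change, 11 at an unadjusted p under 0.05, with a median of -0.53. The treatment medians were -0.54 in BRQ+PD-1, -0.15 in BRQ+IgG2a, -0.87 in IgG2a and -0.57 in PD-1. The summed level of the 16 markers ran from 701.1 to 869.6 CPM (median 803.5) in Mki67-high and from 723.1 to 1139 CPM (median 941.4) in Mki67-low tumours, with no marker at 0 in any library. Pecam1, the adhesion molecule CD31, ran from 40.3 to 80.1 CPM (median 51.8) against 47.1 to 103.4 CPM (median 72.1), a log2 fold change of -0.51 ± 0.13 with an edgeR adjusted p of 0.199. Its values did not overlap in IgG2a and did in the other treatments.

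Single endothelial genes ranged from strongly negative to near 0. Tie1, a receptor of vessel remodelling, ran from 13.9 to 23 CPM (median 16.3) against 16.2 to 42.1 CPM (median 27), a log2 fold change of -0.66 ± 0.15 with an adjusted p of 0.181. Cldn5, the tight junction claudin of endothelium, stood at 6.61 ± 2.31 against 11 ± 3.28 CPM (-0.77 ± 0.18, adjusted p 0.181). Gpihbp1, which carries lipoprotein lipase to the capillary lumen and is in no list, stood at 7.79 ± 1.83 against 13.4 ± 3.6 CPM (-0.80 ± 0.15, adjusted p 0.149). Its p was the smallest among genes with a mean of at least 1 CPM, predicted genes left out. These 3 were singled out after their values were seen, and DESeq2 called each, with adjusted p of 0.0115, 0.0131 and 0.000881. Flt1, a VEGF receptor, stood at 121.5 ± 27.1 against 136.4 ± 47.3 CPM (-0.17 ± 0.16, and -0.027 without replicate 5 of BRQ+IgG2a) and Eng, endoglin, at 310.7 ± 35.7 against 299.8 ± 40.5 CPM (0.03 ± 0.06). Of the 4 muscle-rich tumours 3 are Mki67-low, and without these 4 the endothelial median was -0.37 with 15 of 16 negative and 10 at an unadjusted p under 0.05. Sorted by Top2a the median was -0.24, and sorted by TMM-scaled Mki67 -0.30, each with 4 at that threshold. With a muscle score as a further term in the fit the median was -0.52, with 15 of 16 negative and 11 at that threshold.

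Interferon, MHC class I and T cell genes had negative medians, each closer to 0 without the muscle-rich libraries. Ptprc, the pan-leukocyte gene CD45, did not share that sign, at 108.3 ± 40 against 97.9 ± 34.8 CPM (0.08 ± 0.13, edgeR adjusted p 0.845). Of 25 interferon gamma response genes, all 25 were negative, 5 at an unadjusted p under 0.05, with a median of -0.33, which was -0.12 with 7 positive without the muscle-rich tumours and -0.21 without replicate 6 of BRQ+IgG2a. Of 27 type I interferon genes, 26 were negative, 11 at that threshold, with a median of -0.32 and of -0.15 without those tumours. The treatment medians of the type I list were -0.66 in IgG2a and -0.59 in BRQ+IgG2a against 0.009 in BRQ+PD-1 and 0.0022 in PD-1. Gbp2, an interferon-induced GTPase whose close relatives can share its reads, ran from 48.9 to 358.7 CPM (median 228) against 91.3 to 575.7 CPM (median 217.9), a log2 fold change of -0.42 ± 0.18. Bst2, tetherin, stood at 102.8 ± 31.1 against 124 ± 29.4 CPM (-0.31 ± 0.14). Parp14, the next most abundant gene of the type I list, stood at 89.1 ± 29.7 against 87.3 ± 27.5 CPM (-0.02 ± 0.11).

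MHC class I genes had a median of -0.20 with 17 of 18 negative and 4 at an unadjusted p under 0.05, and of -0.01 with 11 of 18 negative without the muscle-rich tumours. B2m, the light chain of class I, stood at 1888 ± 339.6 against 2152 ± 506.9 CPM (-0.20 ± 0.09), and H2-K1, a class I heavy chain of a family with near-identical copies, at 1535 ± 445.2 against 1769 ± 471.4 CPM (-0.24 ± 0.11). Cd274, the PD-1 ligand PD-L1, stood at 33.8 ± 15.7 against 43.8 ± 21.3 CPM (-0.40 ± 0.18). The T cell list had a median of -0.34 with 22 of 22 negative and 0 at an unadjusted p under 0.05. Without the muscle-rich tumours that median was -0.01 with 10 positive, and without replicate 2 of IgG2a, a muscle-rich Mki67-low tumour, -0.19. Cd8a, the coreceptor of cytotoxic T cells, ran from 1.48 to 22.6 CPM (median 7.68) against 3.24 to 40.6 CPM (median 9.75), a log2 fold change of -0.51 ± 0.33, and of -0.33 without replicate 2 of IgG2a. Tcf7, the most abundant gene of the T cell list, stood at 41.2 ± 8.43 against 41.5 ± 10.9 CPM (-0.05 ± 0.12). Prf1, perforin, stood at 6.94 ± 4.61 against 9.77 ± 8.94 CPM (-0.51 ± 0.23), and Tnfrsf9, the costimulatory receptor 4-1BB, at 22.2 ± 8.89 against 35.5 ± 19.9 CPM (-0.67 ± 0.28). The highest Tnfrsf9 value, 86.2 CPM, was again in replicate 5 of BRQ+IgG2a, without which the difference was -0.43. Entpd1, the most abundant gene of the checkpoint and exhaustion list, to which Tnfrsf9 belongs, stood at 56.4 ± 13.9 against 55.8 ± 16.4 CPM (-0.02 ± 0.11). Summed T cell markers ran from 69.9 to 238.7 CPM in Mki67-high and from 63.1 to 308 CPM in Mki67-low tumours, with none of the 22 at 0 in any library.

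Macrophage genes, the most abundant immune list, had a median of -0.03 with 10 of 23 positive, and fibroblast and collagen genes -0.07 with 6 of 20 positive. The genes of the undifferentiated melanoma state had a median of -0.03 with 7 of 19 positive. Smooth muscle and pericyte genes had a median of -0.43, and of -0.19 without replicate 6 of PD-1. Skeletal muscle genes had treatment medians from -7.17 in IgG2a to 6.39 in BRQ+IgG2a, and Acta1 reached 14070 CPM in replicate 3 of IgG2a, a Mki67-low tumour, and 4469 CPM in replicate 4 of BRQ+IgG2a, a Mki67-high one. Oxidative phosphorylation genes had a median of -0.12, with 23 of 23 negative and 2 at an unadjusted p under 0.05, and of -0.07 without replicate 3 of IgG2a. By treatment their medians were -0.40 in IgG2a, -0.08 in PD-1, -0.07 in BRQ+PD-1 and, with the opposite sign, 0.13 in BRQ+IgG2a.

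Likeness to Mki67 was measured over the 24 tumours on log2 CPM centred within treatment, as a description. The 24 points share their library with Mki67, including its depth and RNA composition. The highest Pearson correlations were 0.97 for Cenpf (Spearman 0.91), 0.97 for Top2a (0.92), 0.97 for Aspm (0.93) and 0.96 for Cenpe (0.90). Without the 2 tumours farthest out in Mki67 they were 0.94, 0.93, 0.94 and 0.92. The median over the mitosis list was 0.89 and over the S phase list 0.75, and 0.82 and 0.58 without those 2 tumours. It was 0.08 for interferon gamma, 0.09 for MHC class I and 0.22 for T cell genes, although their median log2 fold changes were negative. Without those 2 tumours these medians were -0.13, -0.11 and -0.10. The type I interferon median was -0.28, and -0.24 without them. Among the 10 most opposite genes were Napa, a membrane fusion adaptor, at -0.89, and Grina at -0.87. Gas5, a growth arrest transcript that hosts small nucleolar RNAs, and Neat1, the RNA scaffold of paraspeckles, were each at -0.87. Without those 2 tumours Napa, Grina, Gas5 and Neat1 were at -0.77, -0.70, -0.78 and -0.74. Within PD-1 the means of Grina (219.1 against 212.7 CPM) and Gas5 (112.7 against 101.5 CPM) went the other way. In IgG2a the means of Neat1 were 286.4 and 286.7 CPM. Neat1 ran from 112.9 to 335.9 CPM (median 231.7) in Mki67-high and from 181.9 to 573.6 CPM (median 322.1) in Mki67-low tumours, a log2 fold change of -0.55 ± 0.20. Its highest value was in replicate 5 of BRQ+IgG2a and its lowest in replicate 2 of BRQ+PD-1, the tumours with the least and the most Mki67.

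With Mki67 used as a measured level instead of a sort, edgeR called many more genes. In a fit with log2 Mki67 centred within treatment as the term, 2428 genes were called (15.1% of 16028), 1118 with a positive and 1310 with a negative slope. The called genes included 50 of 51 mitosis, 48 of 52 S phase, 20 of 22 cholesterol and fatty acid and 9 of 27 hypoxia and glycolysis genes, the last with negative slopes. Without replicate 5 of BRQ+IgG2a and replicate 2 of BRQ+PD-1, the tumours at the ends of the Mki67 range, 97 genes were called (0.598% of 16213), 93 positive and 4 negative, with 33 mitosis, 4 S phase and 4 cholesterol genes among them. For the T cell list the sign turned without those 2 tumours, from a median slope of 0.30 with 20 of 22 positive to -0.60 with 2 of 22 positive.

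Transcript length moved with the sort. The longest Mki67 transcript has 10061 nt in GENCODE M21, and the genes were split by their longest transcript into 5 classes of 3195 or 3196 genes. The median log2 fold change was -0.10 in the shortest class (median length 1090 nt), then -0.05, -0.02 and 0.0093, and 0.06 in the longest (6520 nt). The share of positive genes went from 26.3 to 67%. The step was steepest in BRQ+PD-1, from -0.17 to 0.17, against -0.02 and -0.01 in BRQ+IgG2a. In each tumour a score was taken as mean log2 CPM of the longest minus the shortest class, and it stood at 2.83 ± 0.19 in Mki67-high and 2.70 ± 0.12 in Mki67-low tumours. The highest scores, 3.32 and 3.09, were in replicates 2 and 1 of BRQ+PD-1. RNA integrity per tumour is not analysed here, and its part in this trend was not tested.

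**Figure D4:**
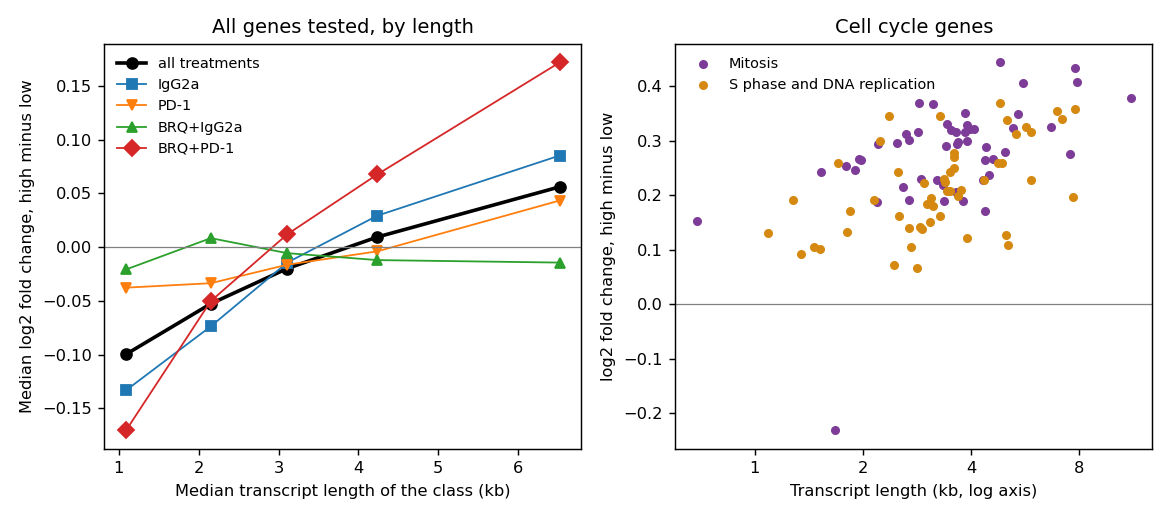
Left, median log2 fold change, Mki67-high minus Mki67-low (vertical axis), in 5 classes of transcript length (horizontal axis, kb) for all treatments and each one; it goes from -0.10 to 0.06 over all treatments. Right, log2 fold change against transcript length (log axis, kb) for the single genes of the mitosis and S phase lists, all above 0 except Pttg1 at -0.23.

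The cell cycle lists stayed positive at both lengths. Among mitosis genes the median was 0.26 for the 26 shorter and 0.32 for the 25 longer members, with a correlation of log2 length and log2 fold change of 0.52 across these 51 genes, which are not independent replicates. Among S phase genes it was 0.16 and 0.25, with a correlation of 0.54. With the length score as a further term in the fit, the mitosis median was 0.27 and the S phase median 0.23, whereas the interferon gamma median went from -0.33 to -0.17, the MHC class I median from -0.20 to -0.03 and the T cell median from -0.34 to -0.09. That fit called 0 genes.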

How the data were processed

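Bulk RNA-seq of 24 tumours was used as the raw counts per Ensembl gene that the authors deposited. HISAT2 2.2.1, StringTie 2.2.1, build GRCm39, Trim Galore 0.6.7, MultiQC 1.11 and FastQC 0.11.8 are named in the submitters' processing notes. For annotation, strandedness and counting program, nothing is given in the sources used here. Tables of FPKM and TPM were not used. Gene names and transcript lengths came from GENCODE M21, and promoters from RefSeq (GRCm38.p6).

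CPM is the count over the library total (19106205 to 34282319). Of 55414 genes, 16029 passed edgeR's expression filter and were fitted with edgeR 4.0.16 in R 4.3.3 (quasi-likelihood, TMM factors, treatment as covariate, Benjamini-Hochberg adjustment over 16028 genes without Mki67, threshold 0.05). A further fit with the interaction of treatment and sort, and 1 of treatment alone for Mki67, were made likewise. List scores are mean log2 CPM with a prior count of 2. Alternatives used DESeq2 1.42.0, limma 3.58.1 (voom), other scaling, other sorts and left-out tumours; those with a length score, the 2 end tumours left out, or both choices together were chosen after seeing the data. Squared differences between replicates of a group were 9.18 to 219 times those of sampling noise over 60 pairs.

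The members and the 36 lists, of 686 genes with 651 tested, were chosen with earlier results of these data known. The single genes in the text are a part of a set made by rule. That set holds Mki67, the called genes, the 2 most abundant members of lists without a call and fixed single genes. The 10 genes most and least correlated with Mki67 belong to it too. Not every gene of the set is shown, and genes from outside it are marked where they appear. On simulated counts for this comparison, run on 15858 genes, the fit recovered 16% of 50 genes changed 1.25-fold, 74% at 1.5-fold, 92% at 2-fold and 96% at 4-fold, with 6 of 145 calls on unchanged genes. Each simulated gene was drawn on its own, whereas genes of these tumours vary together, so these shares need not hold for the real counts.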

Additional observations from a re-analysis of the deposited data

Results flagged for a closer look

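In 85 measures over 4 treatments, 340 checks of 6 tumours, 46 had an end tumour whose gap to its neighbour exceeded 0.625 of the range. They fell on 9 tumours, and the measures share their libraries. Mki67 itself is among the measures, and some genes were taken for their correlation with it in these tumours. Flags in tumours far out in Mki67 are therefore partly built in, and the count is not set against a chance rate.

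BRQ+IgG2a replicate 5, the tumour with the least Mki67, had 21. Its Mki67 was 113.1 CPM, Top2a 234.2, Smc4 159.4, Ccnb1 28.43, Cdk1 40.62, Cenpf 32.27, Aspm 17.16, Tk1 26.01, Foxm1 38.44 and Scd2 1042 CPM, each below the other tumours of its group. Above them stood Cdkn1a at 320.4, Tnfrsf9 at 86.16, Flt1 at 242.1, Neat1 at 573.6, Grina at 296.5 and Napa at 161.7 CPM. Its mean log2 CPM was 4.66 for mitosis, 4.241 for S phase, 4.848 for cell cycle entry, 4.738 for dNTP supply and, above the others, 4.91 for p53 targets.

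IgG2a replicate 2 stood apart in Bst2 (158.2 CPM), H2-K1 (1912), Cd8a (10.36) and Prf1 (6.214), and in the mean log2 CPM of MHC class II (6.473), cytotoxic (1.362), checkpoint (2.266) and B and plasma cell genes (1.696). PD-1 replicate 6 stood apart in Pecam1 (103.4 CPM), Tie1 (42.1) and the list values of oxidative phosphorylation (7.002), B and plasma cells (3.539), macrophages (6.776), endothelium (5.211), fibroblasts (8.39) and smooth muscle (5.006). Both are muscle-rich and Mki67-low.

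The other tumours had 1 or 2 each. In BRQ+IgG2a replicate 4 the smooth muscle value was 4.986. In BRQ+PD-1 replicate 4 Pcna was 192.9 CPM and the adipocyte value 1.6, and in replicate 6 Gapdh was 3134 and Eno1 2169 CPM. In PD-1 replicate 4 Tk1 was 64.26 CPM. In IgG2a replicate 1 Dhodh was 17.73 CPM, and in replicate 4 Slc3a2 was 368.8 and Tnfrsf9 49.84 CPM.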

How the results depend on the processing

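In the comparison of Mki67-high with Mki67-low tumours, edgeR called 0 genes with relative log expression factors, library totals only, no expression filter, a fit that is not robust, the replicate number as a block, without the muscle-rich libraries, with 2 against 2 tumours, both other sorts, the length term and without the 2 end tumours, and voom also called 0. DESeq2 called 89, a muscle term 1 (Gpihbp1), the continuous Mki67 term 2428, the same without the 2 end tumours 97, and the same with the length score 5091. Leaving out 1 tumour gave 0 to 1, the 1 without PD-1 replicate 4. The interaction count was 239 with DESeq2 and 396 with voom, and 0 to 2 with 1 tumour left out, the 2 without BRQ+PD-1 replicate 4. The cause of these differences was not tested.

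Dhodh turned from -0.01 to 0.018 with library totals, 0.10 with continuous Mki67, 0.084 with 2 against 2, 0.0039 and 0.011 when sorted by TMM-scaled Mki67 and Top2a, 0.043 with the length term, 0.15 with continuous Mki67 without the end tumours, and 0.20 with continuous Mki67 and the length score; leaving out 1 tumour it ran from -0.054 to 0.035. With continuous Mki67, per log2 unit, Cd8a was 0.40 and Prf1 0.092. With the length score added they were 1.38 and 0.53, Gbp2 0.13, Bst2 0.020 and H2-K1 0.055. In that fit edgeR called Cd8a, with an adjusted p of 0.00939, as it did 31.8% of all genes. Prf1, Gbp2, Bst2 and H2-K1 were not called, with adjusted p from 0.229 to 0.937. Eng was -0.028 sorted by Top2a, and Flt1 0.00365 without the end tumours. Mki67 in BRQ+PD-1 minus IgG2a was -0.14 with voom and -0.058 to 0.25 with 1 tumour left out, minus PD-1 it was -0.23 to 0.085 with 1 left out, and minus BRQ+IgG2a 0.021 without the muscle-rich libraries and -0.23 to 0.080 with 1 left out.

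Replicate numbers seldom marked the closest tumours: across treatments, 1 of 24 tumours matched its own number best. Of 36 same-numbered pairs 15 correlated above 0.1, and no such count was made for differently numbered pairs. With the replicate block 1577 genes had an unadjusted p under 0.05 against 1772 without, and Dhodh was 0.016. Depth limits the genes of few CPM, such as Adm, Cldn5, Gpihbp1, Cd8a and Prf1, more than the others.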
